A study of Mus musculus with 6 samples.

Results

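The abundant antisense RNAs of the mouse germinal vesicle (GV) oocyte are the subject here. They are the 200 rows typed antisense RNA in the deposited gene table that had the highest mean over all 6 libraries, out of 1149 such rows and 25353 rows in all. They were chosen by that mean alone, which had to be at least 10 normalized reads and was so in 262 antisense rows. The levels below are therefore a description, whereas the difference between the groups played no part in the choice. GV oocytes are fully grown female germ cells held at prophase of meiosis, and the study asked what the loss of a mitofusin, a protein that fuses mitochondria, does to their transcriptome. There were 3 libraries of knockout (KO) oocytes and 3 of wild-type (WT) oocytes, and every library pooled 5 oocytes from mice of the C57BL/6J strain. The submitters' labels conflict on the deleted gene, since the series title and design text name Mfn2, whereas the sample genotype and protocol fields give Mfn1-/-. They also conflict on age, given as 8 weeks in the design text and as P1 in a sample field. No promoter or Cre driver is named in the labels, and no label ties a pool to its own mouse, so every p-value below measures the spread between pools, which may be technical. Both groups went through the same enzymatic digestion of the ovary, and the labels give no treatment.

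A natural antisense RNA is transcribed from the strand opposite another gene, usually a protein-coding one, and can share sequence with that gene's messenger RNA as its complement. Some of these RNAs act on the neighbouring gene during their own transcription, and the imprinted RNA Airn, which silences Igf2r in somatic tissues of the mouse, is a studied case. Mouse oocytes are known for a further route, in which paired sense and antisense strands are cut by Dicer into small interfering RNAs that guide Argonaute proteins to matching messengers.

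Start regions of 4 antisense RNAs are shown first, as a description, and no change reported below was tested against them. They were picked among antisense RNAs that passed the test or were most abundant and had a RefSeq entry near the start in the deposited table. Tug1, Dhrs13os and A530040E14Rik differed between KO and WT oocytes, and Arhgap20os was among the most abundant and did not pass the test. Each runs from 250 bases before to 50 bases after the RefSeq start, 5′ to 3′ on the strand of the antisense RNA, in GRCm38.p6, and RefSeq held such an entry for 85 of the 200. Capitals mark matches to the GC box (GGGCGG), the CCAAT box and the TATA box (TATAAA), searched on both strands. The RefSeq start lay 859 bases from the start in the deposited table for Tug1 (chr11:3648765-3649064, minus strand), 147 bases for A530040E14Rik (chr1:85105843-85106142, plus strand), 0 bases for Dhrs13os (chr11:78032616-78032915, minus strand) and 1 base for Arhgap20os (chr9:51875836-51876135, minus strand).
Tug1: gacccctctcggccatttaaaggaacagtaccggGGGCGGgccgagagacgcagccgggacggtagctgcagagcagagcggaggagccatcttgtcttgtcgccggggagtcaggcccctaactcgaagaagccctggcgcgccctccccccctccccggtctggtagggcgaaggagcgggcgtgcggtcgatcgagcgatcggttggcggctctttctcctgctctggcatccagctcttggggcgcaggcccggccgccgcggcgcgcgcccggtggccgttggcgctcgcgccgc
A530040E14Rik: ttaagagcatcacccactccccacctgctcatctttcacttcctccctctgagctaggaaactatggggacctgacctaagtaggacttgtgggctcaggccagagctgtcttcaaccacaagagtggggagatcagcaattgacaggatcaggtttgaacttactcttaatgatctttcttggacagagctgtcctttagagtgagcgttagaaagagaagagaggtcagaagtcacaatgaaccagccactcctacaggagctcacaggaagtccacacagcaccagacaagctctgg
Dhrs13os: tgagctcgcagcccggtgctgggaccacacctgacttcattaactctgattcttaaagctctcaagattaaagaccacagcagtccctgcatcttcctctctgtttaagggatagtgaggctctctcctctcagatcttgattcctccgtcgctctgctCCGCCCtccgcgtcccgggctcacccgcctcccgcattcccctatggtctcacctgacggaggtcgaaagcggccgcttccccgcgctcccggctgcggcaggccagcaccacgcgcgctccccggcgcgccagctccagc
Arhgap20os: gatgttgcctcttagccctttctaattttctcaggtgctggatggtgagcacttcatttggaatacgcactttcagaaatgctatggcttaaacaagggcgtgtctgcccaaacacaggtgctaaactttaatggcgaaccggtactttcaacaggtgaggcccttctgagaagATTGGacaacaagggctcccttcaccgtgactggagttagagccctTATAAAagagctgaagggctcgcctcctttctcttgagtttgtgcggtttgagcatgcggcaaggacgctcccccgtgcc
The Tug1 region was the richest of the 4 in CpG dinucleotides, with 37, against 24 for Dhrs13os, 10 for Arhgap20os and 1 for A530040E14Rik. Arhgap20os was the only one of the 4 with a TATA box and a CCAAT box, and A530040E14Rik held none of the 3 motifs. Over the 85 antisense RNAs with an entry, 36.5% held a GC box, 29.4% a CCAAT box and 16.5% a TATA box, against 35.9%, 37.9% and 14.2% of the start regions of all 27025 genes with one. Their median GC content was 53%, against 52.7% for all genes, and the median number of CpG dinucleotides was 8, against 7. A match is a description of letters in the window only.

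The libraries held between 6450191 and 7992598 reads assigned to genes. Levels are given as normalized reads, the reads of a gene divided by the authors' size factor of the library. A gene passed the test where limma, fitted to log2(normalized reads + 1) of all genes tested, gave a Benjamini-Hochberg adjusted p under 0.05, and it is then said to have risen or fallen in KO relative to WT oocytes. Mfn2 had 5.25, 5.28 and 4.50 normalized reads in KO oocytes, against 25.5, 38.1 and 32.3 in WT oocytes (log2 fold change -2.44, adjusted p = 0.00487). Mfn1 averaged 386 normalized reads in KO and 340 in WT oocytes and did not pass the test (adjusted p = 0.482). All 14 oocyte markers examined were present, with a summed level of 201266 to 235794 in KO and 246282 to 278101 in WT libraries. Of these, 2 fell in KO oocytes, Zar1 (log2 fold change -0.55, adjusted p = 0.011) and Nlrp5 (-0.80, adjusted p = 0.0458). Summed levels of 9 granulosa markers were 493 to 655 in KO and 603 to 2586 in WT libraries, highest in WT replicate 1. Among them Cyp11a1, a steroidogenic enzyme, was the only one that passed the test, with 3.15, 5.28 and 4.50 normalized reads in KO libraries, against 604, 13.9 and 92.3 in WT libraries, and Amh and Foxl2 were at 0 in 2 of 3 libraries of each group. The 5 stromal and thecal markers summed to 7.19 to 11.6 in KO and 16.6 to 73.2 in WT libraries, highest in WT replicate 1. Col1a2 and Col3a1 were at 0 in all libraries but WT replicate 1, and Dcn alone fell (adjusted p = 0.0244). The 5 immune markers summed to 12.7 to 17.9 in KO and 23.2 to 78.7 in WT libraries, with Cd74 and Lyz2 at 0 in all KO libraries and in WT replicate 2. The groups overlapped in the summed level of 4 endothelial markers (154 to 228 in KO and 161 to 206 in WT libraries) and of 5 surface epithelial markers (12.7 to 26.1 in KO and 15.8 to 29.9 in WT libraries). The part of these other cells in the differences below was not tested. In pooled material, fewer cells of a type and less RNA per cell cannot be told apart.

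Mean levels of the 200 antisense RNAs spanned 16.6 to 4496 normalized reads, with a median of 45.0. Only 53 of them exceeded 100. The 3 most abundant held 34.5% of the reads of the set, and the 10 most abundant held 54.4%. At the lower edge, Gm17139 and Gm4610 had means of 16.8 and 16.6, and the first rows left out, A930015D03Rik and Gm10552, had 16.4 and 16.0. Most carried provisional names, with 152 of 200 called Gm or Rik. They lay on 20 chromosomes, with 18 on chromosome 11 and 3 on the X chromosome. They were short and little spliced, with a median of 1115 exonic bases in 3 exons, and 12 had a single exon. The spread between pools was moderate, with a median coefficient of variation of 16.5% within KO and 16.0% within WT oocytes.

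Reads from opposite strands cannot be told apart in these libraries, because the Nextera XT kit keeps no strand. This bears on the set directly: 124 of the 200 share exonic bases in position with a coding gene on the opposite strand, over a median of 18.2% of their exonic length, and 23 share at least 50%. The other 76 share none with such a gene, but some share bases with exons of other genes. BC023719 is in this class, with 94.7% of its exonic bases in exons of other genes. Among all 200, 131 share exonic bases with some other gene. Beyond position, 82 had at least 10% of their 75-base windows matching a transcript of another gene.

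The ranking was led by A530040E14Rik (chr1:85105946-85114035), which averaged 5388 ± 1081 normalized reads in KO and 3603 ± 553 in WT oocytes (SD, n = 3 each). It lies inside C130026I21Rik and is described further below. Arhgap20os (chr9:51832814-51875886) came next. It runs tail-to-tail into Arhgap20 and had 4616, 3992 and 3813 normalized reads in KO oocytes, against 3631, 4584 and 4491 in WT oocytes. Gm14820 (chrX:8042943-8074619) overlaps Suv39h1, which writes repressive histone H3 lysine methylation, and had 3208, 4017 and 4199 in KO oocytes, against 4491, 3741 and 4549 in WT oocytes. The groups overlapped for both of these, with log2 fold changes of -0.03 ± 0.12 for Arhgap20os and -0.17 ± 0.12 for Gm14820 (SE), neither of which passed the test (adjusted p = 0.928 and 0.511).

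The other members of the 10 most abundant followed at lower levels. Gm42817 (chr5:128336777-128342778) lies inside Tmem132d without sharing an exonic base, and had 2018, 1781 and 1443 normalized reads in KO oocytes, against 1753, 1746 and 1632 in WT oocytes, with the groups overlapping. Gm2479 meets Orai1, the pore of the store-operated calcium channel, by only 7 bases at their starts, and had 1520, 1575 and 1468 in KO oocytes, against 1713, 1772 and 1602 in WT oocytes. Every KO library of Gm2479 lay below every WT library, but the difference did not pass the test (log2 fold change -0.16 ± 0.10 SE, adjusted p = 0.447). Gm20548, inside the autophagy adaptor gene Wdfy3, averaged 990 ± 158 in KO and 1046 ± 107 in WT oocytes. A330093E20Rik, tail-to-tail with the potassium channel gene Kcnn2, averaged 785 ± 69.1 in KO and 827 ± 73.5 in WT oocytes. The groups overlapped for both. Gm17120, inside the amino acid transporter gene Slc6a20a, averaged 731 ± 113 in KO and 689 ± 28.1 in WT oocytes, with 75.8% of its exonic bases inside exons of that gene. BC023719 was higher in every KO library than in any WT library and averaged 739 ± 27.2 in KO and 664 ± 22.7 in WT oocytes, and its level is uncertain, since 94.6% of its windows match the class I histocompatibility gene H2-T10 or another gene. None of these 4 passed the test (adjusted p 0.498 to 0.812). Gm45040 completed the 10 and rose in KO oocytes, as described below.

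**Figure D1:**
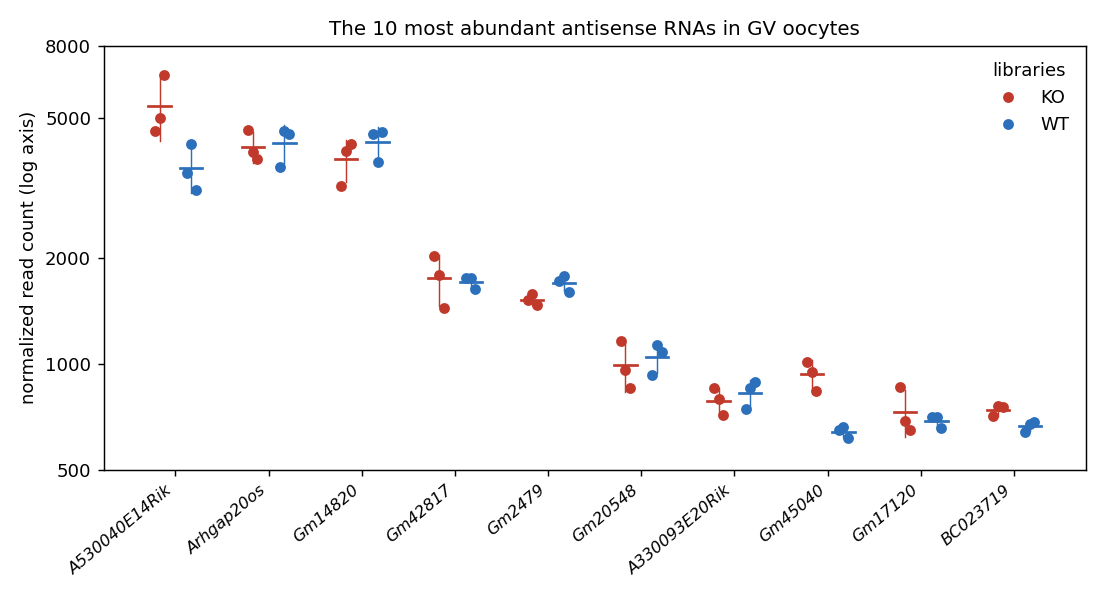
Normalized read counts (log axis) of the 10 most abundant antisense RNAs in each of the 3 KO and 3 WT oocyte libraries, one point per library. A530040E14Rik and Gm45040 are the 2 whose difference passed the test, with all KO points above all WT points.

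By position, 187 of the 200 had a coding partner, counted as the opposite-strand coding gene that overlaps most or, failing that, starts divergently within 5000 bases. There were 78 antisense RNAs inside the coding gene, 45 overlapping it head-to-head, 41 tail-to-tail, 9 spanning it and 14 divergent without overlap, and 13 had no partner. The divergent starts lay a median of 84.5 bases apart. The closest, 2810001G20Rik and the cytochrome oxidase assembly gene Cox10, lay 16 bases apart.

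On the RPKM scale, which divides reads by exonic length and library depth, the antisense RNA was above its partner in 135 of 187 pairs, with a median ratio of 3.97. It was at least 10-fold above in 70 pairs and at most 0.1 times the partner in 18. The median ratio was 9.83 for antisense RNAs inside the coding gene, 3.71 for tail-to-tail, 2.29 for head-to-head, 1.17 for spanning and 0.741 for divergent ones. The set was chosen for high level, so the ratios carry that choice. The greatest ratio was that of Gm20234, at 128 RPKM against 0.10 RPKM for Slfn2, a Schlafen family gene. Inside Chrnb4, a nicotinic receptor subunit, AC156832.1 had 89.7 RPKM against 0.0979 RPKM for the coding gene. The opposite extreme was Gm42756, with 4.17 RPKM against 2255 RPKM for the oocyte F-box gene Fbxw15, which it meets by 179 bases. Where the coding gene is far above the antisense RNA and exons overlap, reads of the 2 genes cannot be told apart within the overlap.

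**Figure D2:**
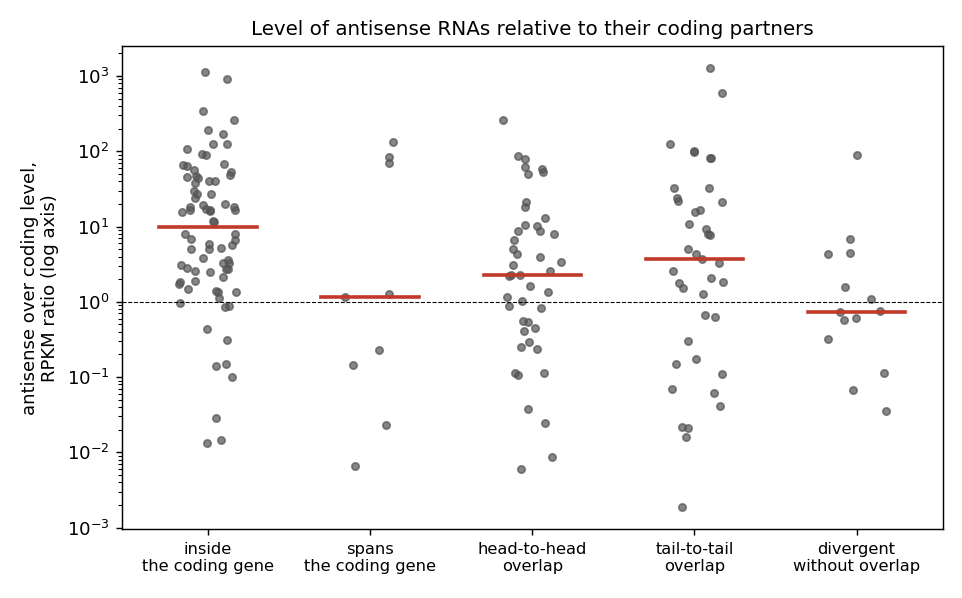
Ratio of the RPKM of each antisense RNA to that of its coding partner (log axis), by arrangement of the pair, one point per pair over 187 pairs, with a red line at the median and a dashed line at equal level. Antisense RNAs inside a coding gene have the highest median, 9.83, and divergent ones the lowest, 0.741.

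Between KO and WT oocytes, 11 of the 200 antisense RNAs passed the test (5.5%), with 9 rises and 2 falls. Among all 18762 genes tested, 3.28% passed, 1.87% as rises and 1.41% as falls, and among genes at least as abundant as the lowest of the 200 it was 4.96%. The share in the set lies near that background. The median log2 fold change was -0.01 in the set and -0.01 over all genes, with 98 antisense RNAs above 0 and 102 below. The values of KO and WT libraries were fully apart for 44 of the 200 (22%), of which 28 were higher and 16 lower in KO oocytes, against 23.2% of all genes tested (11.5% higher and 11.7% lower). All 11 also passed with 2 count tests on the recovered reads, edgeR, which called 13 of the set (6.03% of genes), and DESeq2, which called 12 (7.79% of genes). Leaving out single libraries cost many calls: 8, 5 and 4 of the 11 stayed past the threshold without KO replicates 1, 2 and 3, and 3, 2 and 0 without WT replicates 1, 2 and 3. None changed direction in these 6 fits.

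**Figure D3:**
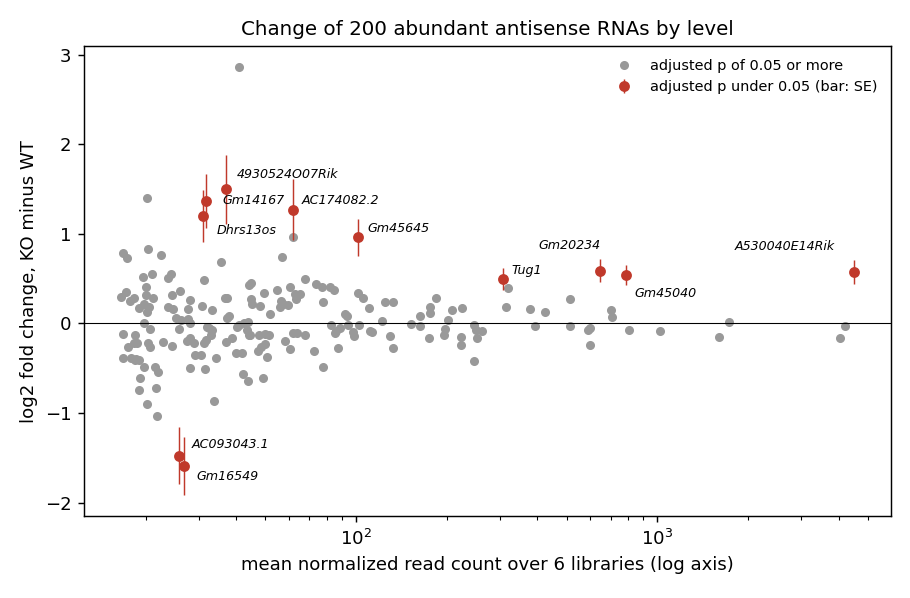
Log2 fold change, KO minus WT, of the 200 antisense RNAs against their mean normalized read count (log axis), one point each, with the 11 that passed the test in red and bars giving the SE. The 4 rises with a mean above 200 lie near 0.5 on the log2 scale, while the 2 falls, Gm16549 and AC093043.1, lie at -1.59 and -1.47.

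A530040E14Rik rose in KO oocytes together with the coding gene it lies in. It had 4573, 4977 and 6614 normalized reads in KO oocytes, against 3484, 4206 and 3119 in WT oocytes (log2 fold change 0.57 ± 0.14 SE, adjusted p = 0.033). C130026I21Rik had 183, 237 and 298 in KO oocytes, against 116, 155 and 118 in WT oocytes (0.86 ± 0.19, adjusted p = 0.0209). KO libraries lay above WT libraries for both genes, and in both KO replicate 3 was the highest. They share 14.8% of the exonic bases of the antisense RNA, and 46.2% of its windows match another gene, most often Gm10552, so its level is uncertain. A530032D15Rik, a further coding gene on the opposite strand there, did not pass the test (0.38, adjusted p = 0.36). Without WT replicate 3, A530040E14Rik had an adjusted p of 0.163.

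Tug1, a long non-coding RNA widely expressed in mouse tissues and needed for male fertility in mice, was the best studied of those that rose (chr11:3639785-3649673, minus strand). It had 382, 335 and 360 normalized reads in KO oocytes, against 254, 248 and 260 in WT oocytes (log2 fold change 0.49 ± 0.13 SE, adjusted p = 0.0448). Its start overlaps that of Morc2a, an ATPase linked to gene silencing, by 180 bases. Morc2a had 87.2, 98.3 and 71.0 in KO oocytes, against 41.0, 40.9 and 48.9 in WT oocytes (0.95 ± 0.22, adjusted p = 0.0293). Both genes of this head-to-head pair thus rose, with no overlap between the groups, and 4.96% of the exonic bases of Tug1 lie in exons of coding genes on the opposite strand. Tug1 did not pass the test in any of the 6 fits with a library left out (highest adjusted p = 0.14, without WT replicate 2). The start region shown above is that of the RefSeq start, which lies outside the overlap with Morc2a.

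Gm45040 and Gm20234, both abundant and both free of exons of a coding gene on the opposite strand, rose by similar amounts. Gm45040 (chr7:107780914-107786446) has no coding partner and no window shared with another gene, and had 1013, 949 and 835 normalized reads in KO oocytes, against 648, 660 and 614 in WT oocytes (log2 fold change 0.54 ± 0.11 SE, adjusted p = 0.0181). Gm20234 (chr11:83065752-83071246) had 914, 651 and 772 in KO oocytes, against 562, 499 and 479 in WT oocytes (0.59 ± 0.13, adjusted p = 0.0248). Of the windows of Gm20234, 15.4% match another gene, most often Gm38947, so its level is less certain. In both antisense RNAs the lowest KO library was above the highest WT library. Slfn2, the partner of Gm20234, was listed at 0 in KO replicate 3 and in 2 of 3 WT libraries and had at most 3 reads in any, so its change cannot be judged. Each lost the call without WT replicate 3 (adjusted p = 0.0944 for Gm45040 and 0.122 for Gm20234).

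Gm14167 stood out by position among the less abundant antisense RNAs that rose. Its start lies 135 bases from that of Fkbp1a, which encodes a binding protein of the drug FK506, with no overlap, so reads of the pair can be told apart. Gm14167 (chr2:151540731-151542348) had 54.6, 49.7 and 35.1 normalized reads in KO oocytes, against 15.5, 20.5 and 15.7 in WT oocytes (log2 fold change 1.37 ± 0.30 SE, adjusted p = 0.023). Fkbp1a averaged 500.4 ± 47.9 in KO and 484 ± 45.1 in WT oocytes and did not pass the test (0.05 ± 0.12, adjusted p = 0.887). The change in the log ratio of this pair, which is the test of a difference between them, was 1.32 ± 0.39 (SE). It did not pass (limma adjusted p = 0.311, unadjusted p = 0.0109). In simulated pairs that fit recovered 0% of 2-fold and 53.3% of 4-fold changes, so it cannot decide whether the changes of these genes differ. Gm14167 had an adjusted p of 0.0944 without WT replicate 3.

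Gm45645 lies inside Erc2, which encodes a protein of presynaptic active zones, and shares 5.4% of its exonic bases with it (chr14:27838165-27876217). It had 124, 115 and 165 normalized reads in KO oocytes, against 56.6, 72.5 and 76.6 in WT oocytes (log2 fold change 0.96 ± 0.20 SE, adjusted p = 0.0181). Every KO library exceeded every WT library. Erc2 itself averaged 239 ± 13.0 in KO and 238 ± 21.4 in WT oocytes (adjusted p = 0.985). The highest adjusted p of Gm45645 with a library left out was 0.0739, without WT replicate 1.

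The remaining 3 antisense RNAs that rose run tail-to-tail into coding genes and share much of their exons with them, so that unstranded reads there cannot be assigned to a strand. Dhrs13os (chr11:78030012-78032665) overlaps Phf12, a co-repressor subunit, and Dhrs13, a short-chain dehydrogenase, and had 43.1, 46.5 and 40.5 normalized reads in KO oocytes, against 22.2, 16.7 and 16.6 in WT oocytes (log2 fold change 1.19 ± 0.29 SE, adjusted p = 0.0349). Its libraries were tight in both groups. Neither Phf12 (-0.14, adjusted p = 0.703) nor Dhrs13 (0.33, adjusted p = 0.537) passed the test.

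4930524O07Rik (chr9:106891547-106895182) overlaps Dock3, an exchange factor for the GTPase Rac, and Manf, a secreted protein of the endoplasmic reticulum. It had 78.8, 27.5 and 61.1 normalized reads in KO oocytes, against 22.2, 21.4 and 11.1 in WT oocytes (log2 fold change 1.50 ± 0.38 SE, adjusted p = 0.0442). KO replicate 2 sat close to the WT libraries. Neither Dock3 (adjusted p = 0.779) nor Manf (adjusted p = 0.93) passed the test.

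AC174082.2 (chr13:96950372-96950914) is a single exon, and 98.5% of it lies within exons of Gcnt4, a glycosyltransferase of mucin-type sugars. It had 114, 67.6 and 74.6 normalized reads in KO oocytes, against 17.7, 53.9 and 40.6 in WT oocytes (log2 fold change 1.27 ± 0.34 SE, adjusted p = 0.0499). WT replicate 1 was the lowest by far, and without it the log2 fold change was 0.82 (adjusted p = 0.154). WT replicate 1 is also the library with the highest summed granulosa markers, 2586 normalized reads. The largest parts of that sum were Hsd3b1 (1270) and Cyp11a1 (604). Inha, Inhba and Foxl2 were also highest there, but Cyp19a1 and Nr5a2 were not. Fshr was at its lowest there (5.54), and Amh was at 0. A link of these markers with AC174082.2 was not tested. Gcnt4 averaged 147 ± 22.4 in KO and 124 ± 21.9 in WT oocytes and did not pass the test (0.25 ± 0.18, adjusted p = 0.523).

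Gm16549 and AC093043.1 were the antisense RNAs that fell in KO oocytes, both on chromosome 14. Gm16549 lies inside Fndc3a, a membrane protein with fibronectin type III domains (chr14:72589752-72603367). It had 12.6, 12.7 and 12.6 normalized reads in KO oocytes, against 31.1, 53.0 and 38.8 in WT oocytes (log2 fold change -1.59 ± 0.32 SE, adjusted p = 0.0157). These are low levels, 12 to 14 reads per KO library, and the groups were well apart. Fndc3a averaged 527 ± 26.5 in KO and 663 ± 24.3 in WT oocytes and did not pass the test (-0.33 ± 0.11, adjusted p = 0.116). Its KO libraries, at 506 to 557, all lay below its WT libraries, at 643 to 690. Of the exonic bases of Gm16549, 19.1% lie in exons of coding genes on the opposite strand, where unstranded reads of the pair cannot be told apart.

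AC093043.1 (chr14:46787633-46788530) is a single exon that overlaps the start of Cnih1, a carrier for export from the endoplasmic reticulum, over 779 bases. It had 13.7, 11.6 and 14.4 normalized reads in KO oocytes, against 33.3, 40.9 and 41.6 in WT oocytes (log2 fold change -1.47 ± 0.31 SE, adjusted p = 0.0186). Cnih1 had 2149, 1961 and 1930 in KO oocytes, against 1610, 1732 and 1766 in WT oocytes (0.24 ± 0.10, adjusted p = 0.215). The groups were fully apart for both genes, and in opposite directions. Of the exonic bases of AC093043.1, 25.5% lie in exons of coding genes on the opposite strand, where unstranded reads of the pair cannot be told apart. The 2 falls were each called in 4 of the 6 fits with a library left out, and lost without WT replicate 2 or 3, with highest adjusted p of 0.0938 for Gm16549 and 0.104 for AC093043.1.

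**Figure D4:**
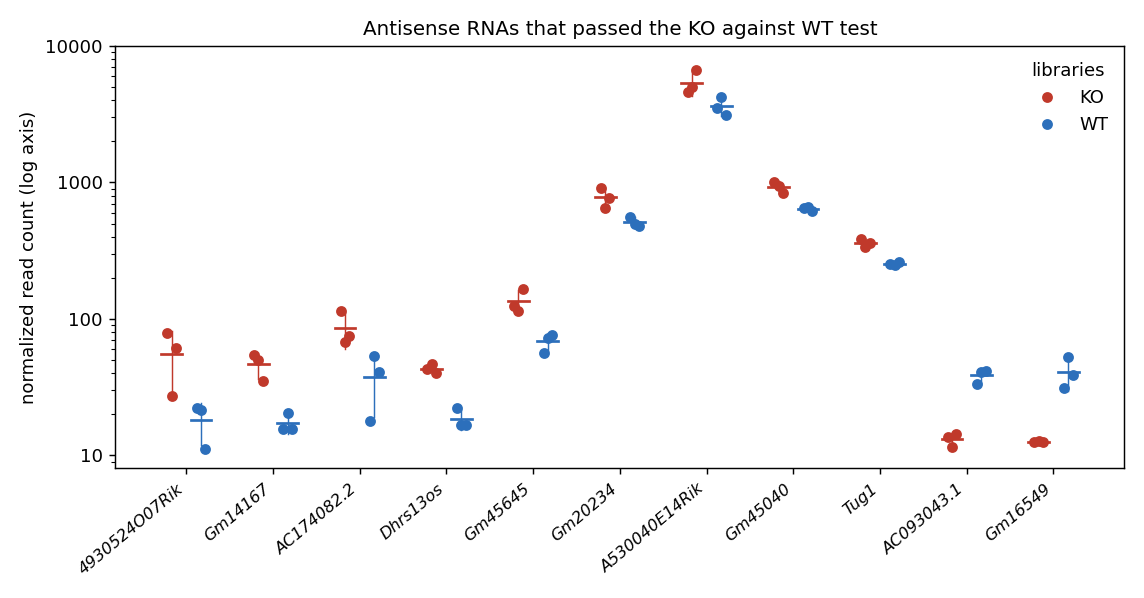
Normalized read counts (log axis) of the 11 antisense RNAs that passed the test, in each of the 3 KO and 3 WT oocyte libraries, one point per library. KO points lie above WT points for 9 of them and below for Gm16549 and AC093043.1, and 4930524O07Rik and AC174082.2 have the widest spread.

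Some of the greatest fold changes among antisense RNAs with non-overlapping groups did not pass the test. Gm12758 had 85.1, 54.9 and 53.1 normalized reads in KO oocytes, against 0, 32.5 and 19.4 in WT oocytes (log2 fold change 2.86 ± 0.85 SE, adjusted p = 0.0753). No read was counted in WT replicate 1, and without that library the log2 fold change was 1.29 (adjusted p = 0.0576). Gm12758 passed with a pseudocount of 5 (adjusted p = 0.0418), with no filter on low values (0.0302), without WT replicate 2 (0.0419) and with the replicate number as a block (0.0362). It did not pass with edgeR (log2 fold change 1.83, adjusted p = 0.0565), DESeq2 (1.89, adjusted p = 0.453) or a pseudocount of 0.5 (adjusted p = 0.104). Of its exonic bases, 51.5% lie in exons of coding genes on the opposite strand. Its partner 4931406P16Rik averaged 386 ± 31.1 in KO and 479 ± 12.2 in WT oocytes (-0.31, adjusted p = 0.169). Gm15491, 84.6% of which lies in exons of the O-GlcNAc hydrolase gene Mgea5 and of Npm3, had 35.7, 22.2 and 30.6 in KO oocytes, against 6.65, 14.9 and 11.1 in WT oocytes. It missed the threshold with limma (1.40 ± 0.38, adjusted p = 0.0545) and passed with edgeR (adjusted p = 0.0404) and with limma where a value of at least 5 in 3 libraries was required (adjusted p = 0.0447). Gm16249 lies divergent from Eif4e1b, an oocyte form of the cap-binding translation factor. It had 97.7, 49.7 and 101 in KO oocytes, against 33.3, 41.8 and 46.2 in WT oocytes (0.96 ± 0.28, adjusted p = 0.0679). It is named because it passed with edgeR (adjusted p = 0.0404) and DESeq2 (adjusted p = 0.0329).

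On the lower side, Gm29361 inside the splicing regulator gene Rbm25 averaged 14.1 ± 3.73 normalized reads in KO and 29.5 ± 5.69 in WT oocytes (log2 fold change -1.03 ± 0.34 SE, adjusted p = 0.114). AC140264.2, at the start of Tbc1d30, averaged 13.8 ± 2.32 in KO and 26.5 ± 1.44 in WT oocytes (-0.90 ± 0.33, adjusted p = 0.153). Gm44876, inside the interleukin receptor gene Il4ra, averaged 33.8 ± 3.75 in KO and 50.5 ± 3.63 in WT oocytes (-0.57 ± 0.25, adjusted p = 0.233). All KO libraries were below all WT libraries in each of the 3.

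Of a list of antisense and other non-coding RNAs known from imprinting, X inactivation and other work, Airn and Sp3os were in the set. Airn, the imprinted RNA opposite Igf2r, had 26.3, 29.6 and 28.8 normalized reads in KO oocytes, against 24.4, 26.0 and 31.4 in WT oocytes. The groups overlapped and the difference did not pass the test (log2 fold change 0.05 ± 0.29 SE, adjusted p = 0.951), and Igf2r did not pass either (0.27, adjusted p = 0.651). Sp3os, at the start of the transcription factor gene Sp3, averaged 93.4 ± 7.53 in KO and 103 ± 3.87 in WT oocytes (-0.14 ± 0.18, adjusted p = 0.742). Kcnq1ot1 and Nespas, also antisense RNAs of imprinted regions, had means of 3.38 and 1.79 and lay below the minimum.

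Few of the coding partners passed the test. Of 182 distinct partners 178 were tested, and 5 passed (2.81%, against 3.28% of all genes), with 4 rises and 1 fall. C130026I21Rik and Morc2a, given above, were the rises whose antisense RNA also rose. The other 3 belong to antisense RNAs that did not pass the test. Lrmda, a leucine-rich gene linked to melanocyte differentiation, had 57.8, 183 and 111 normalized reads in KO oocytes, against 33.3, 32.5 and 31.4 in WT oocytes (log2 fold change 1.67 ± 0.32 SE, adjusted p = 0.0107), while its antisense RNA Gm10248 had a fold change of -0.12 ± 0.25 (adjusted p = 0.851). The spread of Lrmda lay among the KO libraries, with the WT libraries nearly equal.

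Pcbp1, an RNA-binding protein of cytosine-rich sequences, had 1394, 1466 and 1657 in KO oocytes, against 1138, 892 and 1076 in WT oocytes (0.54 ± 0.12, adjusted p = 0.0203), and its antisense RNA 1600020E01Rik a fold change of 0.04 ± 0.34 (adjusted p = 0.969). Slc7a14, an amino acid transporter family member, had 139, 163 and 89.0 in KO oocytes, against 162, 306 and 322 in WT oocytes. This was the only fall (-0.99 ± 0.25, adjusted p = 0.0393), with KO replicate 2 and WT replicate 1 at nearly the same level, and its antisense RNA Gm15496 had a fold change of -0.08 ± 0.22 (adjusted p = 0.897). Each of the 5 partners lost the call in at least 1 fit with a library left out, with the highest adjusted p between 0.0642 for Lrmda and 0.192 for Slc7a14.

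The changes of antisense RNA and partner showed no common direction across pairs. Of 183 pairs with both genes tested, 85 had fold changes of the same sign, and Pearson's r across these pairs was -0.00043. It was -0.06 over the 122 pairs with shared exonic bases, 0.23 over the 49 that overlap without sharing an exonic base and 0.11 over the 14 divergent pairs. The classes are not exclusive. Arrangement came from the deposited positions and shared exons from GENCODE, so some divergent pairs also count among those with shared exonic bases. These are descriptions over pairs, which share the same 6 libraries and are not independent. Of the 10 antisense RNAs that passed the test and had a tested partner, 7 had a fold change of the same sign as the partner. These 7 include Gm20234, whose partner Slfn2 had too few reads to judge. They also include Gm45645 with Erc2 (0.009) and Gm14167 with Fkbp1a (0.05), partners whose sign changed with a library left out. The count thus rests in part on partner changes near 0.

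The log ratio of antisense RNA to coding partner, fitted over all 574 antisense pairs of the table, gave 0 pairs past the threshold (0% called) with limma. There were 61 at an unadjusted p under 0.05, 19 of them in the abundant set, and the smallest adjusted p was 0.223, that of AC093043.1 with Cnih1. In simulated pairs this fit recovered 0% of 2-fold and 53.3% of 4-fold changes, so smaller changes of the ratio were not detectable. With the variance modelled on the lower level of each pair, an alternative chosen after seeing the data, 4 of 574 pairs passed, and 68 had an unadjusted p under 0.05. In 606 simulated pairs, with 30 changed at each size, that alternative recovered 33.3% of 2-fold and 86.7% of 4-fold changes. It made 2 false calls beside them, against 0 in the first fit. The real pairs may hold another number of changes, so the simulation does not tell how many of the 4 pairs are false. Of the 4 pairs, 2 belong to the abundant set. The ratio of AC093043.1 to Cnih1 had a log2 change of -1.72 (adjusted p = 0.0142), and that of Gm10248 to Lrmda -1.80 (adjusted p = 0.0238).

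**Figure D5:**
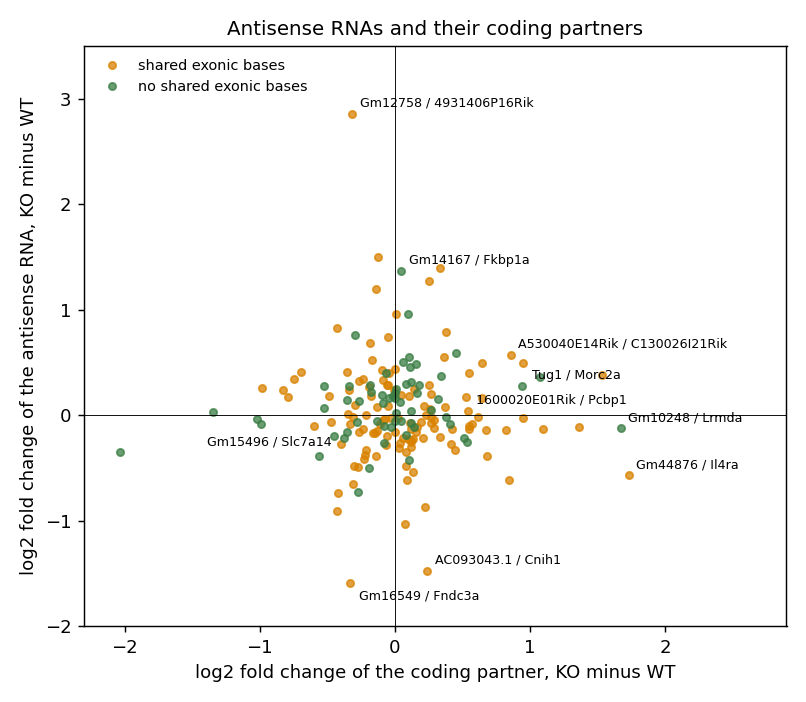
Log2 fold change, KO minus WT, of the antisense RNA (vertical axis) against that of its coding partner (horizontal axis), one point for each of 183 pairs, coloured by whether the pair shares exonic bases. The points form no line, with r of -0.00043, and the labelled pairs at the edges have 1 gene far from 0 and the other near it, apart from pairs such as A530040E14Rik with C130026I21Rik.

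Genes that handle double-stranded RNA, the route by which paired antisense RNAs give small interfering RNAs, were examined as a list of 30, of which 28 were tested. Of these, 1 rose and 1 fell, which is 7.14%, against 3.28% of all genes, and the list's median log2 fold change was -0.07, against -0.01 over all genes. Dicer1, which cuts double-stranded RNA, had 1586, 1713 and 1833 normalized reads in KO oocytes, against 2211, 2302 and 2267 in WT oocytes (log2 fold change -0.40 ± 0.10 SE, adjusted p = 0.0389). Piwil2, an Argonaute of the germline piRNA pathway, had 12.6, 22.2 and 30.6 in KO oocytes, against 0, 8.37 and 3.69 in WT oocytes (2.61 ± 0.67, adjusted p = 0.044). The groups did not overlap for either gene. Each passed in only 2 of the 6 fits with a library left out, with highest adjusted p of 0.138 for Dicer1, without WT replicate 2, and 0.135 for Piwil2, without KO replicate 3. With the replicate number as a block, Dicer1 did not pass (adjusted p = 0.0802). Ago2, the slicing Argonaute, averaged 184 ± 35.5 in KO and 227 ± 11.4 in WT oocytes and did not pass the test (-0.32 ± 0.16, adjusted p = 0.309).

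Taken as a sum, the 200 antisense RNAs held 0.568%, 0.528% and 0.55% of the reads in KO libraries, against 0.477%, 0.527% and 0.486% in WT libraries. The lowest KO value and the highest WT value were nearly equal. The means were 0.549% ± 0.0204 in KO and 0.497% ± 0.0265 in WT oocytes (SD, n = 3 each), and the exact two-sided permutation test gave p = 0.1, the smallest that 3 against 3 libraries can give. Without the 3 most abundant, the sum was 0.356% in KO and 0.329% in WT oocytes (exact permutation p = 0.3). Over the 76 with no exonic base shared with an opposite coding gene, it was 0.164% in KO and 0.144% in WT oocytes (exact permutation p = 0.2). Of the 458 other antisense rows tested, 1 passed, as a fall. These rows are less abundant by choice, and the difference between the sets was not tested.

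The calls were spread over both kinds of position. Among the 124 antisense RNAs that share exonic bases with an opposite coding gene, 6 rose and 2 fell, with a median log2 fold change of -0.06. Among the 76 that share none, 3 rose and 0 fell, with a median of 0.11. By arrangement, 4 of 41 tail-to-tail, 2 of 45 head-to-head, 3 of 78 inside, 1 of 14 divergent and 1 of 13 without partner passed, and 0 of 9 spanning ones. The difference between these classes was not tested.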

How the data were processed

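RNA was measured in 3 KO and 3 WT libraries of mouse GV oocytes, grouped by sample titles. Smart-Seq2 cDNA from 5 oocytes went into Nextera XT libraries read as pairs, per the labels' protocols, without strand or molecular identifiers. The submitters' processing notes name STAR, cutadapt, FastQC, DESeq2 and DESeq, with GRCm38 and mm10 as builds; versions, annotation and counting rules were not given in sources used here. The table deposited gives a signal per gene, reads divided by a size factor, which the authors normalized with DESeq2 per the file headers. Its steps gave whole reads for 100% of values above 0 (tolerance 0.1 reads), so depth per library is known, and precision is limited by pools and by counting.

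Genes that reached 1 in at least 3 libraries were tested as log2(value + 1) with limma-trend (limma 3.58.1, R 4.3.3), all 3 KO against all 3 WT libraries, Benjamini-Hochberg over 18762 genes, threshold 0.05; "passed the test", "rose" and "fell" mean this. Fold changes are on that log2 scale, which can understate changes of low genes and can enlarge them where a library is at 0. Gm12758, at 0 in WT replicate 1, had 2.86 with limma, against 1.83 with edgeR and 1.89 with DESeq2. Piwil2, also at 0 there, had 2.61 with limma and 2.35 with edgeR. Adjusted p-values are limma's unless edgeR 4.0.16 (TMM) or DESeq2 1.42.0, run on the recovered reads, is named. Positions come from the table on GRCm38, with 1 base taken from the deposited end, which lay 1 base past GENCODE M21 in 95.5% of rows matched by name. Exons, and RPKM over exonic bases, used GENCODE M21, matched for all 200. Windows of 75 bases every 25 bases were aligned to all GENCODE transcripts with minimap2 2.31-r1302, with at most 1 mismatch. On simulated counts of 19206 genes, with 100 changed at each size, the gene fit recovered 76% of 2-fold and 98% of 4-fold changes. It made 12 false calls.

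Named antisense RNAs are the 10 highest means, all that passed, the 5 greatest rises and 5 greatest falls with non-overlapping groups, the edges of the cut-off and a list of known antisense RNAs, each with its partner. Others named for an extreme ratio or distance, or as called by another tool, were chosen with their values in view. The set, the lists and the tests were chosen with earlier results of these data known. Alternatives were other pseudocounts, filters, tools, memberships and left-out libraries.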

Additional observations from a re-analysis of the deposited data

How the results depend on the processing

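Calls were few, and many did not stay past the threshold when a library was left out. Such fits hold fewer libraries, so a lost call alone does not show that a change rests on the library left out. Among the 11 antisense RNAs, the log2 fold change over these fits ranged least for Tug1 (0.45 to 0.54) and most for AC174082.2 (0.82 to 1.59). With each library left out in turn, 0 to 8 antisense RNAs passed (11 with all libraries), 0 to 12 coding partners (5), 112 to 889 of all genes (615) and 0 log ratios in each fit (0). Lone-library losses were greatest without WT replicate 3. Stricter memberships are subsets of the 200, so they cannot hold more than the 11 calls. Of the 100 highest means 6 passed, and of the 91 with a mean of at least 50 also 6. Of the 76 with no shared exonic base 3 passed. Of the 118 with under 10% of windows shared, added after seeing the data, 5 passed. In the full set it was 11 of 200, and among all genes tested 3.28%. Log ratios gave 2 calls with pseudocount 5 (1 in the abundant set, AC093043.1) and 4 with the variance trend on the lower level. Over the other settings, 9 to 13 antisense RNAs, 4 to 7 partners and 421 to 864 genes passed.

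With replicate number as a block, 9 antisense RNAs passed, 4 partners, 421 genes and 0 log ratios; Dhrs13os, Tug1, AC174082.2, Morc2a and Dicer1 lost the call and Gm12758 gained it. Same-numbered libraries correlated at -0.102, -0.0473 and -0.0675 in their deviations. These values gave no sign of a pairing by number, but so few libraries cannot exclude one. AC174082.2 also lost the call with a pseudocount of 0.5 or 5. Of the single-gene results, 551 kept direction and side of the threshold, 58 lost the call, 6 gained it and 20 changed sign, all 20 in genes that did not pass and with a library left out. Their log2 fold changes then ranged over -0.14 to 0.031 for Arhgap20os, -0.092 to 0.15 for Gm42817, -0.21 to 0.018 for Gm20548, -0.048 to 0.16 for Gm17120, -0.021 to 0.15 for Airn, -0.12 to 0.20 for Arhgap20, -0.29 to 0.053 for Suv39h1, -0.19 to 0.17 for Tmem132d, -0.035 to 0.082 for Erc2 and -0.0057 to 0.13 for Fkbp1a.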
